A study of Mus musculus with 24 samples.

Results

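The acute phase and siderophore-binding genes examined here were Saa1, Saa2, Saa3, Saa4, Orm1, Orm2, Lcn2, Socs3, Fgb and Crp. They were chosen by name, and every probe set that carried one of these 10 symbols as its only gene symbol was taken: 14 probe sets of the 45101 on the array. Levels were measured in liver and duodenum of male mice aged 7 weeks of the strains C57BL/6 (B6) and DBA/2 (D2), either wild-type or lacking Hfe (Hfe-/-, called KO in array names), the gene mutated in hereditary hemochromatosis. Each of the 4 strain and genotype groups held 3 mice, so that 12 liver and 12 duodenum arrays were compared, and nothing stated that a mouse kept its number in both tissues. Every mouse was given the same diet and was fasted before RNA was taken from the organs. Hfe-/- mice were bred in the study's own facility and wild-type mice were purchased, so that origin and genotype cannot be told apart. The p-values below rest on the spread between mice within groups. For each probe set this spread was estimated over the 12 arrays of a tissue together and moderated across probe sets.

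The acute phase response is the change in plasma proteins that the liver makes when interleukin-6, interleukin-1 and related cytokines reach hepatocytes. Interleukin-6 acts through the JAK kinases and the transcription factor STAT3, and interleukin-1 acts through NF-kappa B and C/EBP factors. The same cytokine route raises hepcidin, the hormone that blocks iron export into plasma, and lipocalin 2, the product of Lcn2, which binds iron-loaded bacterial siderophores and so keeps iron from microbes.

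The serum amyloid A genes are neighbours on chromosome 7 in the order Saa3, Saa4, Saa1 and Saa2, and Orm1 and Orm2 lie on chromosome 4 with Orm3 between them. Saa1 and Saa2 encode nearly identical acute phase apolipoproteins of high-density lipoprotein. The accession behind one of the 2 Saa1 probe sets (1419075_s_at) is that of Saa2 in RefSeq, so that its signal cannot be assigned to one of the genes. Their promoter windows, from 250 bases before to 50 bases after the start, are shown because they make visible how alike these genes are: 287 of 301 aligned positions were identical (95.3%). Windows are from RefSeq on GRCm38.p6, which held 9 of the 10 genes, Orm1 being the exception. Capitals mark matches to TTGCNCAA, a form of the C/EBP binding site, or to TTCNNNGAA, the STAT site; both strands were searched, and the letters were chosen after the sequences had been seen. The Saa1 window lies at chr7:46742931-46743230 on the minus strand and the Saa2 window at chr7:46751583-46751882 on the plus strand.
Saa1: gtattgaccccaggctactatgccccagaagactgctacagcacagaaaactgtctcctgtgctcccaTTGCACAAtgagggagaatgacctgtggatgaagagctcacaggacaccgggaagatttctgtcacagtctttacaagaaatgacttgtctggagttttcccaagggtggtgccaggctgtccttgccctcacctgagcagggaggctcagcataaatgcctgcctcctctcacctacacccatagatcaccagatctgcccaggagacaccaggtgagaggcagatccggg
Saa2: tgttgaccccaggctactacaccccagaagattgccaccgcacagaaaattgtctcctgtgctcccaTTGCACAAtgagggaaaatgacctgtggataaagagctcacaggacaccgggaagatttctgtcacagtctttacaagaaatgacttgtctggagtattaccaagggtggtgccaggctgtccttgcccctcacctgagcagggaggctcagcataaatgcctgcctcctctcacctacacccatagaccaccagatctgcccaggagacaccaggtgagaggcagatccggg

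Shorter stretches around the first match are shown for Lcn2, Orm2 and Socs3. Saa4 and Fgb also held a match and are not shown, and the windows of Crp and Saa3 held none. The Lcn2 stretch lies at chr2:32387918-32387985 on the minus strand, the Orm2 stretch at chr4:63362299-63362366 on the plus strand and the Socs3 stretch at chr11:117969482-117969550 on the minus strand. The first base of the match lay 216 bases before the start in Lcn2, 120 in Orm2 and 154 in Socs3.
Lcn2: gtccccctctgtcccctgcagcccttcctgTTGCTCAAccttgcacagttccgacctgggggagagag
Orm2: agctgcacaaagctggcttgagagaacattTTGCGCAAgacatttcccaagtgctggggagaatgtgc
Socs3: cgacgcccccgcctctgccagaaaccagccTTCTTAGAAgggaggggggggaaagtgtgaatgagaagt

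The TTGCNCAA letters were found in the windows of 6 of the 9 genes (Fgb, Lcn2, Orm2, Saa1, Saa2 and Saa4), against 2.94% of 32851 promoter windows of the same length. The TTCNNNGAA letters were found in Fgb and Socs3, against 8.3% of all windows. Of 2 further motifs searched, the interleukin-6 response element CTGGGAA was found in Fgb alone, against 11.1% of all windows, and the kappa B site in none of the 9, against 0.155%. The letters were chosen after the sequences had been seen, and the nearly identical Saa1 and Saa2 windows hold the same match. These shares are therefore no test of enrichment. A match is a description of the letters and was not tested for binding.

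Signals were scaled by the authors to a common mean, and a signal near 20 was close to the median of all probe sets on an array (15.8 to 23.4). Hfe itself checked the labels: its signal was 70.4 to 98.8 on the liver arrays of Hfe-/- mice and 434 to 691 on those of wild-type mice, and in duodenum it was 15.7 to 45.1 against 76.6 to 105. Liver arrays were hybridised in 4 runs and duodenum arrays in 2, and the D2 liver groups shared a run only through the wild-type array D2 WT 3. Liver array B6 WT 3 alone had another fluidics protocol. In D2 duodenum all Hfe-/- arrays and D2 WT 3 were on station 2, and D2 WT 1 and D2 WT 2 on station 1. Protocol and station were not fitted as blocks. All 7 hepatocyte markers measured were above 20 in the median liver array, and all 7 enterocyte markers measured were so in duodenum. Of the 28061 probe sets kept for testing, all 14 of the genes examined were among them.

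Of the 10 genes, all but Socs3 had a higher median signal in liver than in duodenum. For Socs3 the medians were 61.7 in liver and 77.0 in duodenum on 1416576_at. They were 154 and 208 on 1455899_x_at and 89.1 and 148 on 1456212_x_at. All 14 probe sets were above 20 on every liver array. In duodenum 8 probe sets were under 20 on all 12 arrays, which was every probe set of Saa1, Saa2, Saa4, Orm1, Orm2 and Fgb. These passed the filter through liver alone, and their duodenal differences are not described. The remaining 6 probe sets, for Socs3, Crp, Lcn2 and Saa3, carried the duodenal results.

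**Figure D1:**
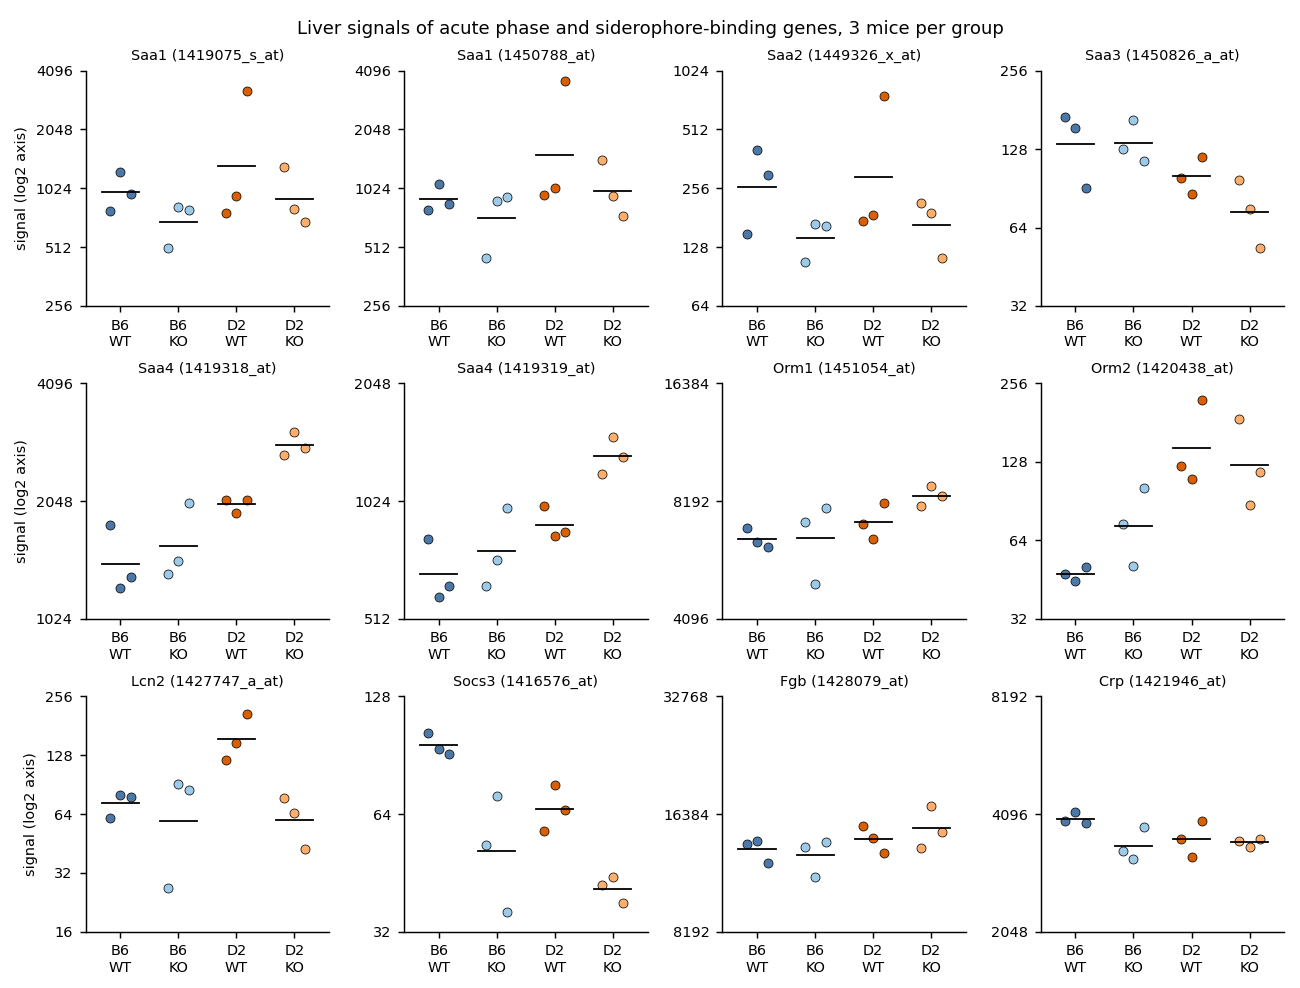
Liver signal (log2 axis, scaled units) of 12 probe sets on each of 12 arrays, grouped as B6 or D2 and wild-type (WT) or Hfe-/- (KO); each point is 1 mouse and each line the geometric mean of 3 mice. Lcn2 was lower in all 3 D2 KO mice (42.5 to 77.3) than in any D2 WT mouse (121 to 208), and D2 WT 3 stood apart for Saa1 and Saa2.

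Lcn2 had the largest change of the 10 genes in the liver of D2 mice lacking Hfe. Its signals were 121, 147 and 208 on the 3 D2 wild-type arrays and 77.3, 64.4 and 42.5 on the 3 D2 Hfe-/- arrays. The groups did not overlap. The log2 fold change was -1.38 (SE 0.38, n = 3 against 3, limma adjusted p = 0.0962), a level 0.385 times that of wild-type, and with an adjusted p of at most 0.1 as the threshold for knockout comparisons Lcn2 was called lower.

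In B6 liver the Lcn2 signals were 60.8, 80.5 and 78.4 in wild-type mice and 26.8, 91.3 and 85.3 in Hfe-/- mice. The B6 groups overlapped, since a single array, B6 KO 1, was low and the other 2 were above all wild-type arrays. The B6 log2 fold change was -0.29 (SE 0.38, limma adjusted p = 0.833), and 0.28 without B6 KO 1. However, B6 KO 1 was the only B6 Hfe-/- array in the hybridization run that held all B6 wild-type liver arrays. Over the settings other than leaving out arrays, the B6 log2 fold change ran from -1.09 to -0.20 and was never called. The difference between the strains in the effect of Hfe loss was -1.08 (SE 0.54, limma adjusted p = 0.543), so that a difference between the strains was not shown, with a 95% interval of -2.23 to 0.06.

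For Lcn2 all 3 D2 wild-type arrays (121 to 208) lay above all 3 B6 wild-type arrays (60.8 to 80.5). The log2 difference was 1.09 (SE 0.38, limma adjusted p = 0.101), which was not called at the threshold of 0.01 set for strain comparisons. With the run as a block it was 0.39 (adjusted p = 0.676). The levels of the D2 Hfe-/- mice (42.5 to 77.3) lay within the range of the B6 mice of both genotypes (26.8 to 91.3).

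The Lcn2 call was close to its threshold. By quantitative PCR, the paper reports lower Lcn2 in D2 Hfe-/- mice for the array samples but not for its additional validation mice. With hybridization run as a block it was lost (log2 fold change -1.80, limma adjusted p = 0.134), and it was lost without any one of 8 of the 12 liver arrays (B6 WT 1, 2 or 3, D2 WT 1, 2 or 3, D2 KO 2 or 3; adjusted p 0.119 to 0.327), with the fold change between -1.56 and -1.13. Neutrophils store lipocalin 2 in their granules, and of 10 neutrophil markers 5 were measured, with a summed liver signal of 72.8 to 198 in D2 wild-type and 109 to 179 in D2 Hfe-/- mice; the defining genes S100a8 and S100a9 had median liver signals of 23.4 and 30.2, and the part of these cells in the Lcn2 values was not tested.

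Saa4, the constitutive member of the serum amyloid A family, was higher in D2 liver without Hfe. On probe set 1419319_at its signals were 996, 835 and 853 in D2 wild-type mice and 1204, 1497 and 1331 in D2 Hfe-/- mice, which did not overlap. The log2 fold change was 0.59 (SE 0.16, limma adjusted p = 0.0890), and it was called.

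The other Saa4 probe set, 1419318_at, gave 2059, 1906 and 2065 against 2680, 3079 and 2802. Its groups did not overlap either, but with a log2 fold change of 0.50 (SE 0.15, limma adjusted p = 0.124) it was not called. Both probe sets followed each other over the 12 liver arrays (Pearson r = 0.985, 2 readings of the same RNA). With the run as a block neither was called (0.65, adjusted p = 0.472, and 0.46, adjusted p = 0.632), and the call of 1419319_at was lost without B6 WT 3, D2 WT 1, D2 WT 2, D2 WT 3, D2 KO 2 or D2 KO 3 (adjusted p 0.112 to 0.303).

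In B6 liver Saa4 gave 0.19 (SE 0.16, limma adjusted p = 0.695) on 1419319_at. The B6 wild-type signals (821, 583 and 619) and Hfe-/- signals (622, 726 and 985) overlapped. D2 wild-type mice lay above B6 wild-type mice on both probe sets, by 0.42 (SE 0.16, adjusted p = 0.133) and 0.50 (SE 0.15, adjusted p = 0.0531), neither past 0.01.

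Of the 14 probe sets, 2 were called in D2 liver on loss of Hfe, 1 lower and 1 higher, where 2.75% of all 28061 probe sets were called (1.4% lower and 1.35% higher), and 4 did not overlap between the groups, against 17.7%. Counting 1 probe set per gene, the one with the highest mean, 1 of 10 genes was called (Lcn2) against 3.3% of 13006 genes. In B6 liver none was called, against 1.02% of all probe sets, and 3 of the 14 did not overlap, against 17.2%. In the test of a difference in effect between strains none was called either, against 0.214%. At an unadjusted p under 0.05 limma gave 3733 probe sets in D2 liver, 3234 in B6 liver and 2733 for the strain difference in effect. The median log2 fold change of the 10 genes was -0.30 in D2 and -0.14 in B6 liver, and that of all genes 0.02 and -0.0024.

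**Figure D2:**
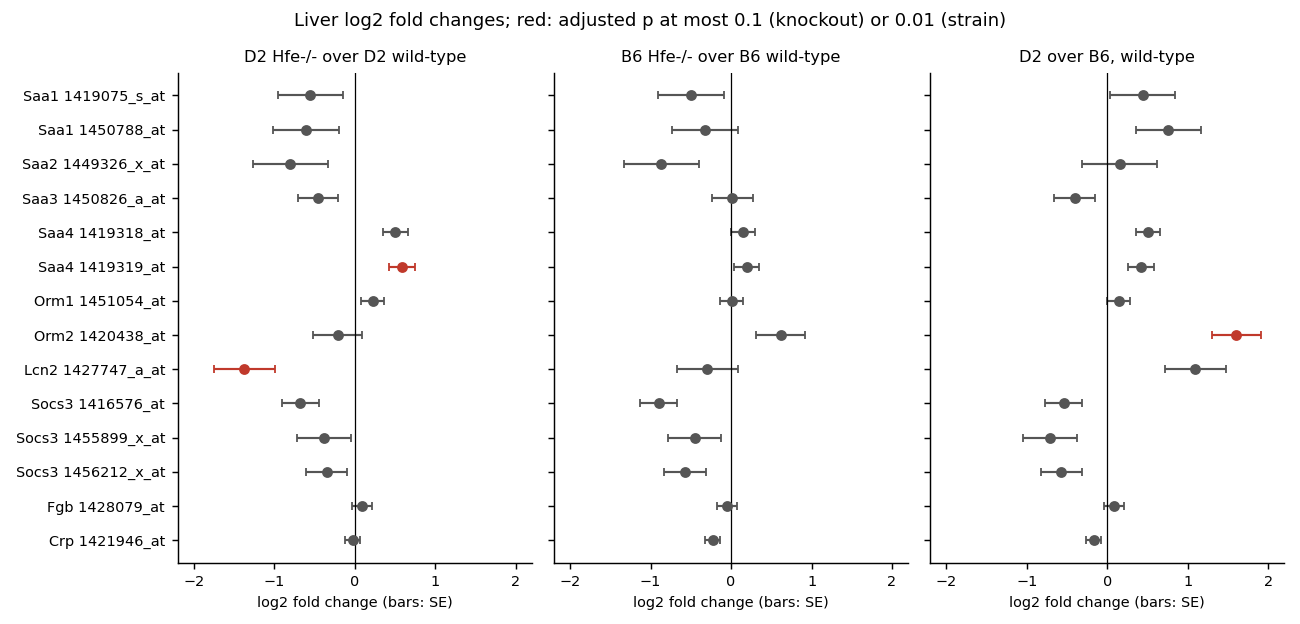
Log2 fold change in liver (x axis, with SE as bars) of all 14 probe sets (y axis) for D2 Hfe-/- over wild-type, B6 Hfe-/- over wild-type and D2 over B6 wild-type, 3 mice a group. Called probe sets, in red, were Lcn2 and Saa4 1419319_at in the D2 knockout comparison and Orm2 in the strain comparison.

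Saa1 and Saa2, the inducible hepatic serum amyloids, were dominated by 1 mouse. Saa1 on 1419075_s_at gave 765, 939 and 3236 in D2 wild-type mice and 1320, 802 and 692 in D2 Hfe-/- mice. The third D2 wild-type array, D2 WT 3, was the highest of all 12 liver arrays, and the remaining D2 arrays overlapped. Saa1 on 1450788_at repeated this with 944, 1027 and 3608 against 1431, 936 and 735.

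Saa2 gave 175, 186 and 758 in D2 wild-type and 214, 192 and 113 in D2 Hfe-/- mice, again with D2 WT 3 far above the rest. The D2 log2 fold changes were -0.56 (SE 0.40, limma adjusted p = 0.615) and -0.61 (SE 0.41, adjusted p = 0.574) for Saa1 and -0.80 (SE 0.47, adjusted p = 0.50) for Saa2. Without D2 WT 3 the Saa1 values were 0.09 and 0.01 and the Saa2 value -0.11.

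D2 WT 3 was the only D2 wild-type array hybridised in the run of the D2 Hfe-/- arrays. With the run as a block Saa1 was therefore called lower in D2 Hfe-/- liver (-1.84 and -1.86, limma adjusted p = 0.0454 and 0.0490), which rests on that array, and Saa2 gave -2.19 (adjusted p = 0.108). D2 WT 3 was the highest array of its group for 8 of the 10 genes, Lcn2 and Orm2 among them.

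In B6 liver Saa1 on 1419075_s_at gave 781, 1243 and 955 in wild-type and 508, 817 and 795 in Hfe-/- mice. Saa2 gave 149, 400 and 300 in wild-type and 107, 167 and 163 in Hfe-/- mice. On these 2 probe sets 2 wild-type arrays were above every Hfe-/- array and the third, B6 WT 1, lay within their range. Probe set 1450788_at of Saa1 gave 795, 1072 and 849 against 452, 884 and 929, with 1 wild-type array above every Hfe-/- array. The log2 fold changes were -0.50 (SE 0.40, limma adjusted p = 0.695) and -0.32 (SE 0.41, adjusted p = 0.831) for Saa1 and -0.87 (SE 0.47, adjusted p = 0.505) for Saa2.

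**Figure D3:**
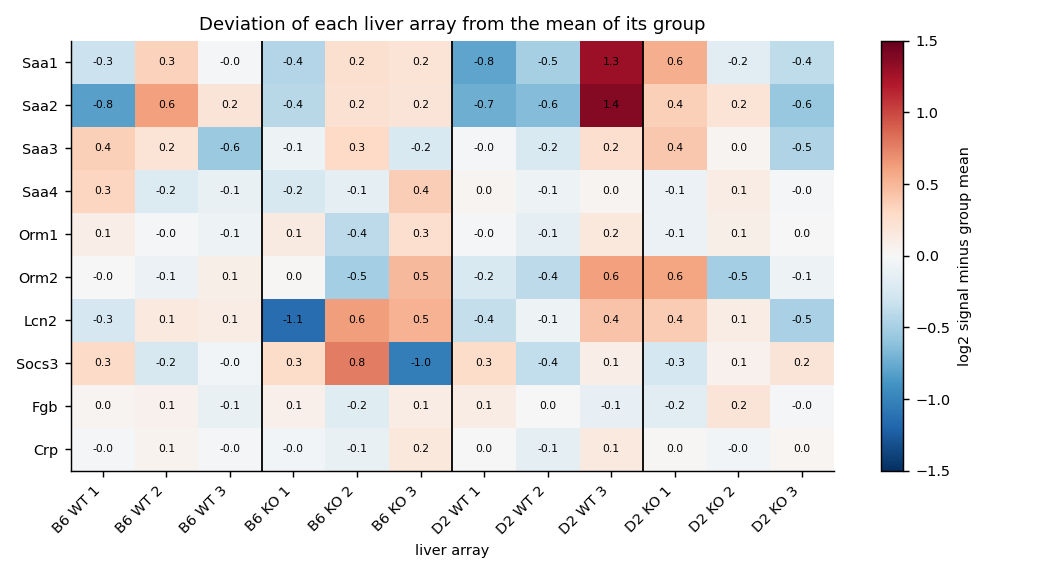
Deviation of each liver array (columns) from the mean of its group, on the log2 scale (colour and printed value), for the probe set of each gene (rows) with the highest mean. D2 WT 3 carried the largest positive deviations, in Saa1 and Saa2, and B6 KO 1 the largest negative one, in Lcn2.

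The Saa1 and Saa2 probe sets varied together from mouse to mouse, and the gene sequences are close enough for probes to read both. Saa1 is read here by 1419075_s_at, which was assigned to the same Saa2 transcript as 1449326_x_at of Saa2. Their agreement therefore cannot show that separate genes varied together. Probe set 1450788_at, assigned to Saa1 itself, had r of 0.85 with Saa2 over the 12 liver arrays. Over 12 liver arrays, which share 4 groups, r was 0.924 for Saa1 with Saa2 and 0.734 for Saa1 with Lcn2; after subtraction of each group's mean r was 0.936 and 0.681. For Saa4 with Saa1 r was 0.0871. Among 5961 genes with a mean liver signal of at least 100, those most like Lcn2 over the 12 arrays were Tcf25, Lbp, Dcaf6, Vdac2 and Mrap (r from 0.880 to 0.848); Lbp encodes the lipopolysaccharide-binding protein, itself an acute phase product. Those most like Saa1 were Umps, Crkl, 2310067E19Rik, Gnpnat1 and Fam47e (r from 0.829 to 0.766). By rank, Spearman rho ran from 0.608 (Tcf25) to 0.874 (Mrap) for the genes named with Lcn2. For those named with Saa1 it ran from 0.343 (Crkl) to 0.846 (Umps). These correlations are descriptions without a test.

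Saa3, which macrophages and adipocytes make besides hepatocytes, gave 98.9, 86.3 and 120 in D2 wild-type and 97.2, 75.5 and 53.6 in D2 Hfe-/- liver. The groups overlapped and the log2 fold change was -0.46 (SE 0.25, limma adjusted p = 0.468). In B6 liver the change was 0.01 (SE 0.25, adjusted p = 0.992). In duodenum Saa3 stayed between 13.4 and 33.5 on all arrays, with 6 of 12 under 20.

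Socs3, the feedback inhibitor that interleukin-6 induces through STAT3 and that blocks JAK kinases, was measured by 3 probe sets. On 1416576_at the liver signals were 103, 94.1 and 91.4 in B6 wild-type mice and 53.4, 71.1 and 36.0 in B6 Hfe-/- mice. In D2 liver they were 58.0, 76.0 and 65.4 in wild-type mice and 42.1, 44.0 and 37.8 in Hfe-/- mice. In both strains every Hfe-/- array lay below every wild-type array.

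The same probe set gave 80.3, 80.8 and 128 in B6 wild-type duodenum and 60.3, 60.5 and 43.1 in B6 Hfe-/- duodenum. In D2 duodenum it gave 106, 100 and 117 against 63.3, 64.8 and 73.6. Again no Hfe-/- array reached a wild-type array, so that Socs3 lay below wild-type without overlap in all 4 comparisons of strain and tissue. Of 28061 probe sets 5 did so (0.0178%), a share looked up after the Socs3 values had been seen. In single comparisons the share that lay lower without overlap was 8.87% in B6 liver, 8.1% in D2 liver, 6.13% in B6 duodenum and 6.66% in D2 duodenum. Run was partly tied to genotype in all but D2 duodenum, whose arrays shared a run. In both tissues B6 KO 1 was the only B6 Hfe-/- array in the run of the B6 wild-type arrays. Over the settings other than leaving out arrays, the B6 duodenal log2 fold change ran from -0.80 to -0.64 and was never called.

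None of these 4 differences passed the threshold on its own. The log2 fold changes were -0.90 (SE 0.23, limma adjusted p = 0.119) in B6 liver, -0.68 (SE 0.23, adjusted p = 0.187) in D2 liver, -0.80 (SE 0.20, adjusted p = 0.858) in B6 duodenum and -0.68 (SE 0.20, adjusted p = 0.214) in D2 duodenum. The effect of Hfe loss averaged over both strains, a contrast added after these values were seen, was -0.79 in liver (SE 0.16, limma adjusted p = 0.0228), where Socs3 was called lower on 1416576_at and 3.66% of all probe sets were called (2.03% lower and 1.63% higher). In duodenum the average was -0.74 (SE 0.14, adjusted p = 0.154) and not called, where 0.0428% of all probe sets were called.

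The liver average was called without any one of the 12 liver arrays (-0.91 to -0.66, limma adjusted p 0.00788 to 0.0656) and was lost with the run as a block (-0.88, adjusted p = 0.121). The x_at probe sets 1455899_x_at and 1456212_x_at, a class that can bind related transcripts, gave averages of -0.42 (SE 0.23, adjusted p = 0.437) and -0.46 (SE 0.18, adjusted p = 0.235) in liver, neither called. In B6 liver they gave -0.45 (SE 0.33, limma adjusted p = 0.652) and -0.57 (SE 0.26, adjusted p = 0.402). In D2 liver they gave -0.38 (SE 0.33, adjusted p = 0.683) and -0.35 (SE 0.26, adjusted p = 0.616). On both x_at probe sets the liver groups overlapped in each strain. In the averaged contrast Saa4 was also called on 1419319_at (0.39, SE 0.11, adjusted p = 0.0955) and was lost with 9 of the 12 single arrays left out.

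In duodenum the x_at probe sets lay below wild-type without overlap in B6 mice, where 1455899_x_at gave 239, 175 and 294 against 152, 146 and 147. They overlapped in D2 mice, where 1455899_x_at gave 215, 293 and 300 against 201, 201 and 226. Their duodenal averages were -0.49 (SE 0.12, limma adjusted p = 0.359) and -0.41 (SE 0.13, adjusted p = 0.526). Probe set 1416576_at had r of 0.749 and 0.831 with 1455899_x_at and 1456212_x_at over the 12 liver arrays, and of 0.853 and 0.891 over the 12 duodenum arrays.

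In wild-type liver all 3 Socs3 probe sets were lower in D2 than in B6 mice without overlap, by -0.54, -0.71 and -0.57 (limma adjusted p = 0.193, 0.242 and 0.218), none called. Of 8 Kupffer cell and macrophage markers, all measured, 7 were lower in D2 than in B6 wild-type liver (median log2 difference -0.50, 1 called), all 8 were lower in B6 Hfe-/- liver (median -0.46, none called) and 6 in D2 Hfe-/- liver (median -0.14, none called). Their summed signal was 3424 to 4559 in B6 wild-type, 2276 to 3749 in B6 Hfe-/-, 2341 to 3372 in D2 wild-type and 2521 to 3192 in D2 Hfe-/- liver, and the part of these cells in the Socs3 values was not tested. The genes most like Socs3 on 1455899_x_at over the 12 liver arrays were Eola1, Polg2, Ppargc1a, Echdc2 and Tcf4 (r from 0.961 to 0.864); Ppargc1a encodes the coactivator PGC-1 alpha of fasting metabolism. A single array, B6 KO 3, was the lowest of all in liver for this probe set, at 78.3, while B6 KO 2 was the highest, at 273.

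**Figure D4:**
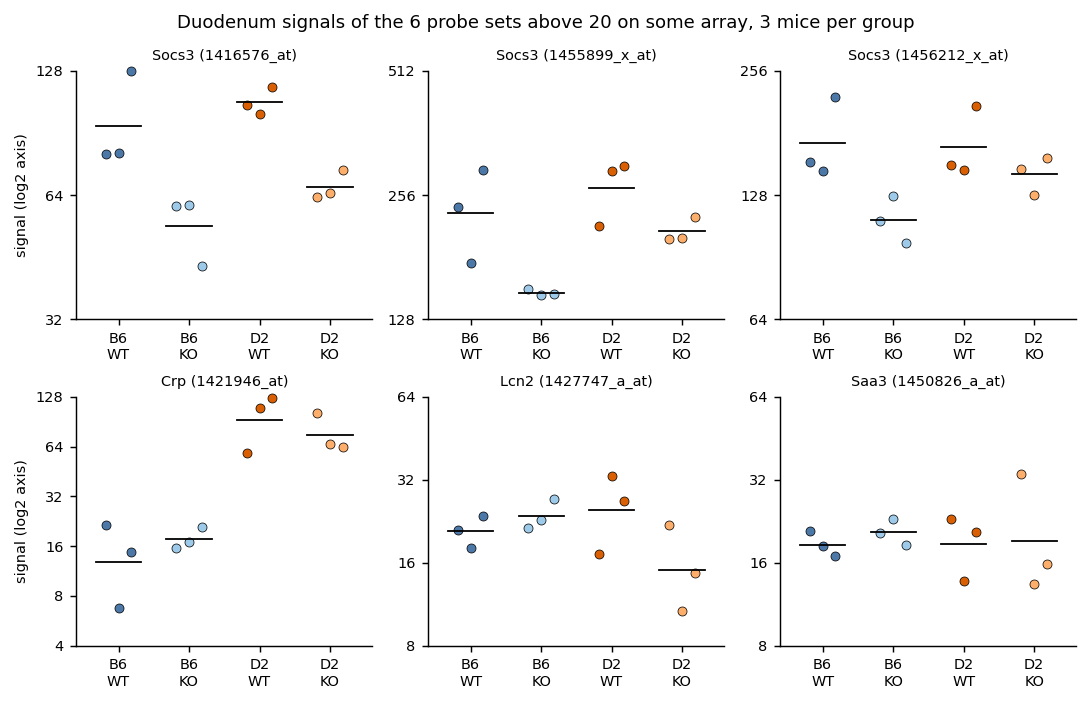
Duodenum signal (log2 axis, scaled units) of the 6 probe sets that exceeded 20 on at least 1 array, by strain and genotype; each point is 1 mouse and each line the geometric mean of 3 mice. On Socs3 1416576_at all KO mice lay below all WT mice of their strain, and Crp was 58.9 or more in all D2 mice and 21.5 or less in all B6 mice.

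Crp, a pentraxin that binds microbial surfaces and is only a weak acute phase reactant in mice, differed between the strains in duodenum. Its duodenal signals were 21.5, 6.74 and 14.7 in B6 wild-type mice and 58.9, 110 and 126 in D2 wild-type mice. The strains did not overlap, and 11.2% of all probe sets lay higher in D2 without overlap. The log2 difference was 2.86 (SE 0.40, limma adjusted p = 0.000532), but the B6 signals were below or close to the median probe set, and the difference was 1.89 (adjusted p = 0.000218) when 16 was added to each signal, so that its size is not fixed. The Hfe-/- mice kept the same order, with 15.7, 16.8 and 20.9 in B6 and 103, 66.0 and 64.0 in D2 mice.

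Loss of Hfe gave no called change of Crp in duodenum (-0.30 in D2 and 0.46 in B6, both SE 0.40, limma adjusted p = 0.818 and 0.909). Crp was the only one of the 14 probe sets called between the strains in duodenum, where 3.37% of all probe sets were called (1.28% higher). The strain call was lost with the run as a block (2.60, limma adjusted p = 0.174), since all B6 wild-type arrays were hybridised in one run and all D2 arrays in the other, and it held without any one of the 12 duodenum arrays (2.39 to 3.23, adjusted p 0.000423 to 0.00369).

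In liver Crp signals ran from 3147 to 4140 over all 12 arrays. The strain difference there was -0.17 (SE 0.097, 95% interval -0.38 to 0.037, limma adjusted p = 0.363), and it was not called. The B6 Hfe-/- arrays (3290, 3147 and 3788) lay below the B6 wild-type arrays (3920, 4140 and 3886) without overlap, with a log2 fold change of -0.23 (SE 0.097, adjusted p = 0.380). Apcs, the neighbouring gene on chromosome 1, which encodes serum amyloid P, the major acute phase pentraxin of mice, was higher in D2 wild-type liver by 1.95 (SE 0.14, adjusted p = 3.63e-07). In duodenum Apcs was called as well, by 3.55 (SE 0.63, adjusted p = 0.00348), a size that fell to 1.28 when 16 was added to each signal. The duodenal Apcs call was lost with the run as a block (4.69, adjusted p = 0.0826) and without B6 WT 1, B6 WT 3, D2 WT 1, D2 WT 2 or D2 WT 3 (adjusted p 0.0118 to 0.0201).

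The orosomucoids are abundant glycoproteins that bind drugs and lipids in plasma. Orm2 was higher in D2 than in B6 liver: 123, 110 and 222 in D2 wild-type against 47.5, 44.8 and 50.5 in B6 wild-type mice. The groups did not overlap, and the log2 difference was 1.60 (SE 0.31, limma adjusted p = 0.00353), 3.04-fold. It was the only one of the 14 probe sets called between the wild-type strains in liver, where 4.35% of all probe sets were called (1.97% higher), and 7 of the 14 did not overlap between the strains, against 27.6% of all.

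Hfe-/- mice gave 73.8, 51.1 and 102 in B6 and 188, 87.3 and 118 in D2 liver for Orm2. All B6 Hfe-/- arrays were above all B6 wild-type arrays, by 0.61 (SE 0.31, limma adjusted p = 0.467), while the D2 groups overlapped (-0.21, SE 0.31, adjusted p = 0.831). The strain call was lost without B6 WT 1, B6 WT 2, B6 WT 3 or D2 WT 3 (1.29 to 1.65, adjusted p 0.0115 to 0.0204) and with the run as a block (1.22, adjusted p = 0.0545). Probe sets of this multigene family can share signal with Orm1 or Orm3. For Orm2, Crp and every other wild-type strain difference, a sequence difference under the probes cannot be told apart from a difference in level.

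Orm1 ran from 5031 to 8974 over all liver arrays, Fgb from 11318 to 17211. Fgb encodes the beta chain of fibrinogen, the clotting protein. Neither was called in any liver comparison, with log2 fold changes on loss of Hfe of 0.22 in D2 and 0.01 in B6 mice for Orm1 (SE 0.14) and of 0.09 and -0.05 for Fgb (SE 0.13). The 95% intervals of the D2 changes were -0.08 to 0.53 for Orm1 and -0.18 to 0.36 for Fgb.

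Lcn2 in duodenum was near the median of all probe sets, at 17.2, 33.1 and 26.9 in D2 wild-type and 22.0, 10.7 and 14.7 in D2 Hfe-/- mice. The groups overlapped and the log2 fold change was -0.72 (SE 0.32, limma adjusted p = 0.408). B6 duodenum gave 0.19 (SE 0.32, adjusted p = 0.965). No probe set of the 14 was called on loss of Hfe in D2 or B6 duodenum, where 0.378% and 0.0107% of all were called, or for the difference in effect between strains (0.0143%); at an unadjusted p under 0.05 limma gave 3321, 1588 and 2930 probe sets. The summed signal of 9 pancreatic acinar markers ran from 2031 to 81522 over the 3 D2 Hfe-/- duodenum arrays and from 24511 to 57229 over the 3 D2 wild-type arrays, and its part in the duodenal values was not tested. In whole organs fewer cells of a type and less RNA per cell cannot be told apart.

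Beyond these 10 genes, 21 other genes that the acute phase response raises were measured, of 22 listed. On loss of Hfe in D2 liver 2 of the 21 were called, against 3.3% of all genes, both lower: Hamp, which encodes hepcidin (-1.64, SE 0.21, limma adjusted p = 0.00125), and Il1rn, the interleukin-1 receptor antagonist (-1.36, SE 0.32, adjusted p = 0.050). In B6 liver none of the 21 was called, and Il1rn gave -1.17 (SE 0.32, adjusted p = 0.140). The median log2 fold change of the 21 was -0.09 in D2 and -0.08 in B6 liver. With the run as a block, where the D2 contrast is that of the 3 Hfe-/- arrays with D2 WT 3 alone, both D2 calls were lost (Hamp -1.45, adjusted p = 0.101, and Il1rn -1.53, adjusted p = 0.341). The Hamp call held without any one of the 12 liver arrays (-1.89 to -1.33), and that of Il1rn was lost without D2 WT 1, D2 WT 2, D2 WT 3, D2 KO 2 or D2 KO 3 (adjusted p 0.108 to 0.188). For Hamp the effect differed between the strains by -1.67 (SE 0.29, adjusted p = 0.0402). The paper's quantitative PCR found lower Hamp1 and Hamp2 in D2 Hfe-/- mice for the array samples. In its additional validation mice this was not found again, apart from a trend towards lower levels. Hamp was read here by an x_at probe set, a class that can bind related transcripts. The part of Hamp2 in its signal was not tested.

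Between the wild-type strains 7 of the 21 were higher in D2 liver and none lower. Besides Apcs they were the metallothioneins Mt1 (1.92, SE 0.24) and Mt2 (2.33, SE 0.31), the protease inhibitor Serpina3n (1.09, SE 0.12), the fibrinogen alpha chain Fga (0.71, SE 0.11), the metal transporter Slc39a14 (0.67, SE 0.11) and the metalloreductase Steap4 (0.76, SE 0.12), with limma adjusted p of 0.00097 or less. With the run as a block the calls of Fga (0.71, adjusted p = 0.0135), Slc39a14 (0.72, adjusted p = 0.0126) and Steap4 (0.63, adjusted p = 0.0357) were lost. Those of Slc39a14 and Steap4 were also lost without trend (adjusted p = 0.0148 and 0.0158) and with the mean of a gene's probe sets (0.44, adjusted p = 0.0943, and 0.76, adjusted p = 0.0112). Of all 13006 genes 5.04% were called in this comparison. Fgb, which is the neighbour of Fga on chromosome 3, gave 0.09 (SE 0.13, adjusted p = 0.776).

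Among 7 measured genes of 10 that the acute phase response lowers, 1 was called in D2 liver on loss of Hfe (3.3% of all genes), Serpina6, which encodes corticosteroid-binding globulin (-0.46, SE 0.12, limma adjusted p = 0.0749); the call was lost with the run as a block (-0.51, adjusted p = 0.291) and with 6 of the 12 single arrays left out. Of 24 measured genes of the interleukin-6, interleukin-1 and STAT3 pathway none was called in D2 liver, against 3.3% of all genes. In B6 liver 2 of the 24 were called, against 1.15% of all genes: the immediate early gene Junb was lower (-1.29, SE 0.15, adjusted p = 0.000949) and the receptor Il1r1 was higher (0.73, SE 0.18, adjusted p = 0.0950). The effect on Junb differed between the strains by 1.11 (SE 0.21, adjusted p = 0.0655). The Il1r1 call was lost with the run as a block (0.51, adjusted p = 0.505) and with 9 of the 12 single arrays left out. None of the 24 was called on loss of Hfe in duodenum, against 0.484% of all genes in D2 and 0.00769% in B6 mice.

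Of 4 genes that make the mammalian siderophore or handle lipocalin 2, 3 were measured. Bdh2, whose product has been described as making the mammalian siderophore that lipocalin 2 binds, was higher in D2 Hfe-/- liver (1.15, SE 0.21, limma adjusted p = 0.0169), a call lost with the run as a block (0.65, adjusted p = 0.546). In B6 liver Bdh2 gave 0.27 (SE 0.21, adjusted p = 0.684), and the difference in effect between the strains was 0.88 (SE 0.30, adjusted p = 0.340). The lipocalin 2 receptor gene Slc22a17 and Mmp9, whose product binds lipocalin 2, were not called in any comparison.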

How the data were processed

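The deposited values are intensities: MAS5 signals on a linear scale, 1 per probe set of an Affymetrix mouse array, made by the authors per the submitters' processing notes (version not given in the sources used here) and scaled by them to a common mean. Depth does not apply to arrays; precision is limited by 3 mice a group. The deposited run records give hybridization times, from which runs were set by gaps of over 30 minutes.

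Signals were taken as log2. Probe sets whose third-highest signal reached 20 in liver or duodenum were kept (28061 of 45101), and the 64 control probe sets were left out. Each tissue was fitted with 4 groups of 3 arrays in limma 3.58.1 (R 4.3.3, lmFit, eBayes with trend), with Benjamini-Hochberg adjustment over all kept probe sets; thresholds were 0.1 for loss of Hfe and 0.01 for strain. An exact permutation test of 3 against 3 arrays cannot go below 0.1 and was not used. The procedure was tested on simulated data. Of the probe sets 34958 had 1 gene symbol, 932 several and 9211 none; where a gene had several, the one with the highest mean over 24 arrays stood for it. The text names every probe set of the 10 genes, up to 4 genes of each other list by smallest adjusted p, and 3 further called genes of the liver strain comparison, chosen after their values were seen, the 5 genes most like Saa1, Lcn2 and Socs3, and Hfe. Arrays were checked for duplicates, and none were identical. Members and lists were chosen with earlier results of these data known. The averaged contrast was added after the values were seen. Alternatives are given below. Promoters came from RefSeq (GRCm38.p6). Probe-level files were not used here.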

Additional observations from a re-analysis of the deposited data

Results flagged for a closer look

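In liver the effect of Hfe loss differed between the strains, by limma's test of the difference, for 3 genes outside the 10: Hamp (-1.67, D2 effect minus B6 effect, adjusted p = 0.0402), Serpina6 (-0.90, adjusted p = 0.0621) and Junb (1.11, adjusted p = 0.0655). With the run as a block the differences were -1.59, -1.14 and 1.29, and none was called (adjusted p = 0.378, 0.149 and 0.306). In eBayes without trend, which leaves the differences as they are, none was called either, and calls were lost without a single array in 3, 5 and 8 of 12 cases respectively.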

How the results depend on the processing

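Changes of the log scale (adding 16 to the signal), quantile normalization, no filter, a filter at a third-highest signal of 100, stricter thresholds (0.05 and 0.005), fitting only the arrays compared, eBayes without trend, gene means, replicate and run blocks, and leaving out each array were tried. In D2 liver the count of genes called on loss of Hfe was 1; it became 2 with quantile normalization, 2 with the stricter filter and 2 with only the arrays compared (Saa4 1419318_at joined), and 0 with stricter thresholds, 0 without trend and 0 with gene means; leaving out 1 array gave 0 to 2. With the run block it stayed 1, but the gene was Saa1 in place of Lcn2. In B6 liver and for the difference in effect it was 0 throughout. For strain in liver 1 became 2 with only the arrays compared (Lcn2 joined), 0 without trend and 0 with the run block, and 0 to 1 with an array left out; in duodenum 1 became 0 with the run block and stayed 1 with an array left out. For the averaged effect in liver 0 became 1 with 16 added, 2 with the stricter filter and 3 with the run block, and 0 to 1 with an array left out; other duodenal counts stayed 0. Causes were not tested.

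Signs turned only in differences that were not called. With quantile normalization these were Crp in D2 liver (0.019) and Fgb in D2 (-0.029) and B6 liver (0.060). With the run block they were Fgb (0.055) and Saa3 (-0.050) in B6 liver and the strain differences of Saa1 (-0.44 and -0.16) and Saa2 (-0.71) in liver. With 1 array left out, D2 liver values ran from -0.95 to 0.089 and -0.95 to 0.014 for Saa1, -0.51 to 0.094 for Orm2, -0.10 to 0.047 for Crp and -0.0072 to 0.17 for Fgb. B6 liver values ran from -0.032 to 0.31 for Saa4, -0.61 to 0.28 for Lcn2, -0.11 to 0.039 for Fgb, -0.51 to 0.014 for Saa1, -0.27 to 0.19 for Saa3, -0.12 to 0.20 for Orm1 and -0.83 to 0.069 for Socs3. Strain values ran from -0.20 to 0.84 for Saa1 and -0.53 to 0.52 for Saa2 in liver and from -0.20 to 0.15 for Socs3 in duodenum; Crp in B6 duodenum ran from -0.011 to 0.83.

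Replicate numbers did not pair the arrays: deviations of same-numbered arrays correlated between -0.158 and 0.116, with 1 of 18 over 0.1. With the replicate block the Lcn2 call in D2 liver held (-1.38, limma adjusted p = 0.0877) and the call of Saa4 1419319_at was lost (0.59, adjusted p = 0.121); the count of genes called stayed 1 in D2 liver, 1 for strain in liver and 1 in duodenum.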
